A study of Arabidopsis thaliana with 8 samples.

Results

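The genotype by fraction interaction asks which genes responded to msh1 differently on tagged ribosomes than in the whole stem. It was computed for each gene as the msh1 against wild type (WT) difference in TRAP minus the same difference in Total, on the log2 scale. All 8 libraries entered, and the members were all nuclear loci, 32548 of the 32833 loci listed. Of these, 21202 passed the filter on low counts and were tested, and 4528 held 0 counts in every library. A value above 0, called higher here, means that msh1 TRAP stood above what the other 3 groups would give if the msh1 effect were the same in both fractions, and a value below 0, called lower, that it stood below.

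The samples were floral stems of Arabidopsis thaliana accession Columbia-0 (Col-0), from plants grown in growth chambers with 16 h days at 22 °C. Both fractions, TRAP and Total, were taken from WT and from msh1, which gives 4 groups with 2 libraries each that the labels call biological replicates. TRAP used FLAG::RPL18, a FLAG-tagged ribosomal protein L18, under the MSH1 promoter, so a TRAP library samples only cells that use that promoter. The labels do not state the msh1 allele, the number of transgenic lines, whether Total plants carry the transgene, or whether Total and TRAP share plants.

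TRAP, translating ribosome affinity purification, pulls down tagged ribosomes together with the mRNAs on them, and Total RNA holds all mRNA of the tissue, loaded on ribosomes or not. MSH1 is a plant homologue of the bacterial mismatch repair protein MutS that is targeted to mitochondria and plastids, and its loss is known for genome rearrangement in organelles, altered growth and changes in DNA methylation. A change in ribosome loading and a change in which cells carry the tag cannot be told apart from counts per gene.

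Counts in nuclear genes summed to between 7568728 and 13611280 per library, so that 3 counts, taken as the floor, stood for 0.220 to 0.396 CPM (counts scaled to library size, the unit of level used here). Markers of xylem, phloem companion cells, epidermis, guard cells, chlorenchyma, pollen and anther, seed and myrosin cells were read in each library, and none was at 0. The 2 msh1 TRAP libraries differed more from each other than those of any other group, with a chi-square per degree of freedom of 17.58 against 5.21 to 9.43. The deposited MSH1 counts (AT3G24320, chromosome 3, 8822924 to 8829728, minus strand) were higher in the libraries labelled msh1, at 27.9 and 30.8 CPM in Total and 36.3 and 22.5 CPM in TRAP, against 9.27 and 9.61 CPM in WT Total and 12.3 and 14.0 CPM in WT TRAP. With the allele not given, these levels do not check the genotype. The MSH1 interaction was −0.48 ± 0.31 (SE) and did not pass the test (edgeR adjusted p = 0.31).

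RPL18, the ribosomal protein gene that gives the tag construct its name, was itself among the genes with a high interaction. It stood at 278 and 269 CPM in TRAP of WT against 849 and 1862 CPM in that of msh1, and at 293 and 273 CPM in Total of WT against 344 and 328 CPM in that of msh1. The msh1 TRAP libraries were apart from the other 6 and from each other. The interaction was 2.06 ± 0.39 (edgeR adjusted p = 0.00597) and ranged from 1.33 to 2.55 when each library was left out. Reads of the tag construct that match the gene cannot be told apart from its own.

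Across the genome the interaction was wide. It passed the test for 3312 genes, 15.6% of those tested (edgeR adjusted p under 0.05), of which 1910 were higher, or 9.01%, and 1402 were lower, or 6.61%. The median over all genes was −0.01, the middle 90% of genes lay between −1.17 and 1.30, and the smallest called value was 0.61 in size. Calls of at least 2-fold numbered 2091, or 9.86%, with 1326 higher, or 6.25%, and 765 lower, or 3.61%. The count depends on single libraries: it rose without msh1 TRAP replicate 1 and fell when any other library was left out. Each such fit has fewer residual degrees of freedom, so a lost call does not by itself mean a changed value. In all 8 of the leave-one-out fits together, 796 calls held, 581 higher and 215 lower.

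For nearly all of these genes the msh1 effect that passed by itself was the one in TRAP. The msh1 effect passed the test in TRAP and not in Total for 3084 of the 3312 genes, or 93.1%. In TRAP, msh1 differed from WT at 8818 genes, 41.6% of those tested, and in Total at 824 genes, or 3.89%. Among genes whose call came with a TRAP effect alone, the median size of the msh1 effect was 1.13 in TRAP and 0.17 in Total. The other calls were 48 genes with an effect in Total only, 40 with effects in the same direction, 22 with effects in opposite directions, and 118 for which neither effect passed by itself.

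**Figure D1:**
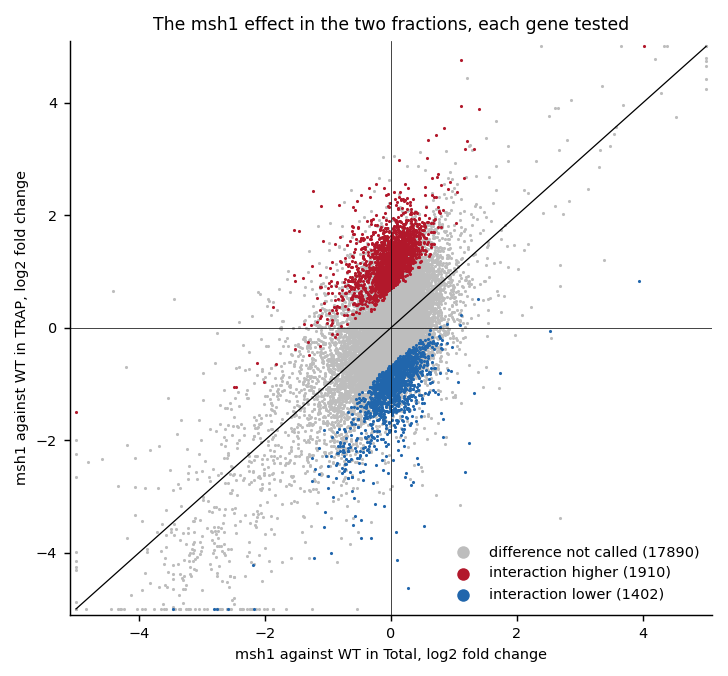
Log2 fold change of msh1 against WT in Total (horizontal axis) and in TRAP (vertical axis), 1 point per gene tested, with values beyond 5 in size drawn at the edge. On the diagonal the interaction is 0; the 1910 genes called higher lie above it and the 1402 called lower lie below it, mostly near 0 on the horizontal axis.

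Read the other way, the same genes are those whose difference between TRAP and Total was not the same in both genotypes. That difference passed the test for 1076 genes in WT, or 5.07% (3.41% higher and 1.67% lower in TRAP), and for 5553 genes in msh1, or 26.2% (14.1% higher and 12.1% lower). Of the 1910 higher genes, 1594 did not differ between TRAP and Total in WT and were higher in TRAP in msh1, and 55 were lower in TRAP in WT and higher in TRAP in msh1. Of the 1402 lower genes, 761 did not differ in WT and were lower in TRAP in msh1, 330 were higher in TRAP in WT and did not differ in msh1, and 48 went from higher in WT to lower in msh1. Both msh1 TRAP libraries were above all 6 other libraries at 1764 of the higher genes, or 92.4%, where 20.6% of all genes tested had that order. Both were below all others at 1061 of the lower genes, or 75.7%, against 19.9% of all genes. In the higher genes msh1 TRAP mostly stood alone, whereas part of the lower genes were high in WT TRAP. The contrast itself favours these orders, because msh1 TRAP enters it with a plus sign and WT TRAP with a minus sign. They describe the calls and support nothing further.

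Among called genes that carry a symbol and average 5 CPM or more, the highest interaction belonged to IPMI2, a small subunit of the isopropylmalate isomerase that elongates methionine side chains for aliphatic glucosinolates, the sulphur-rich defence compounds of the cabbage family. IPMI2 (AT2G43100, chromosome 2, 17920647 to 17921844, plus strand) stood at 75.6 and 91.0 CPM in TRAP of WT against 411 and 345 CPM in that of msh1, and at 85.4 and 96.8 CPM in Total of WT against 42.1 and 60.7 CPM in that of msh1. It was lowest in msh1 Total and highest in msh1 TRAP, and neither group overlapped WT. Its interaction was 3.0 ± 0.28 (edgeR adjusted p = 0.000599). GSTU20, a tau-class glutathione S-transferase (AT1G78370, chromosome 1, 29484120 to 29485389, minus strand), came next at 2.75 ± 0.25 (edgeR adjusted p = 0.000599), with 1684 and 1512 CPM in msh1 TRAP and 265 to 488 CPM in the other 6 libraries. CB5-C, a cytochrome b5 (AT2G46650), followed at 2.65 ± 0.26, with 246 and 211 CPM in msh1 TRAP and 37.8 to 62.5 CPM elsewhere. Each of these 3 genes kept its call in every leave-one-out fit and with the length trend described below removed.

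The other genes among the highest were of several kinds. MT2B, a metallothionein that binds metal ions (AT5G02380), stood at 387 and 437 CPM in TRAP of WT against 2101 and 2122 CPM in that of msh1, and at 697 and 684 CPM in Total of WT against 613 and 689 CPM in that of msh1. WT TRAP was the lowest group and msh1 TRAP the highest, and the interaction was 2.44 ± 0.23 (edgeR adjusted p = 0.000599). PMSR2, a peptide methionine sulfoxide reductase that repairs oxidised methionine, was at 2.32 ± 0.23, and FP6, a farnesylated metal-binding protein, at 2.22 ± 0.20. FLA9, a fasciclin-like arabinogalactan protein of the cell surface, was at 2.21 ± 0.36, and RCI2A, a small membrane protein induced by cold and salt, at 2.14 ± 0.22. These calls held in all leave-one-out fits. GSTF11 (2.42 ± 0.29) overlaps the exons of AT3G03200, so its reads are uncertain between both loci. KTI1, a Kunitz trypsin inhibitor (2.24 ± 0.65), kept its call only without msh1 TRAP replicate 1, and APC11, a subunit of the anaphase-promoting complex (2.17 ± 0.55), only without WT TRAP replicate 1 or either msh1 TRAP library.

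**Figure D2:**
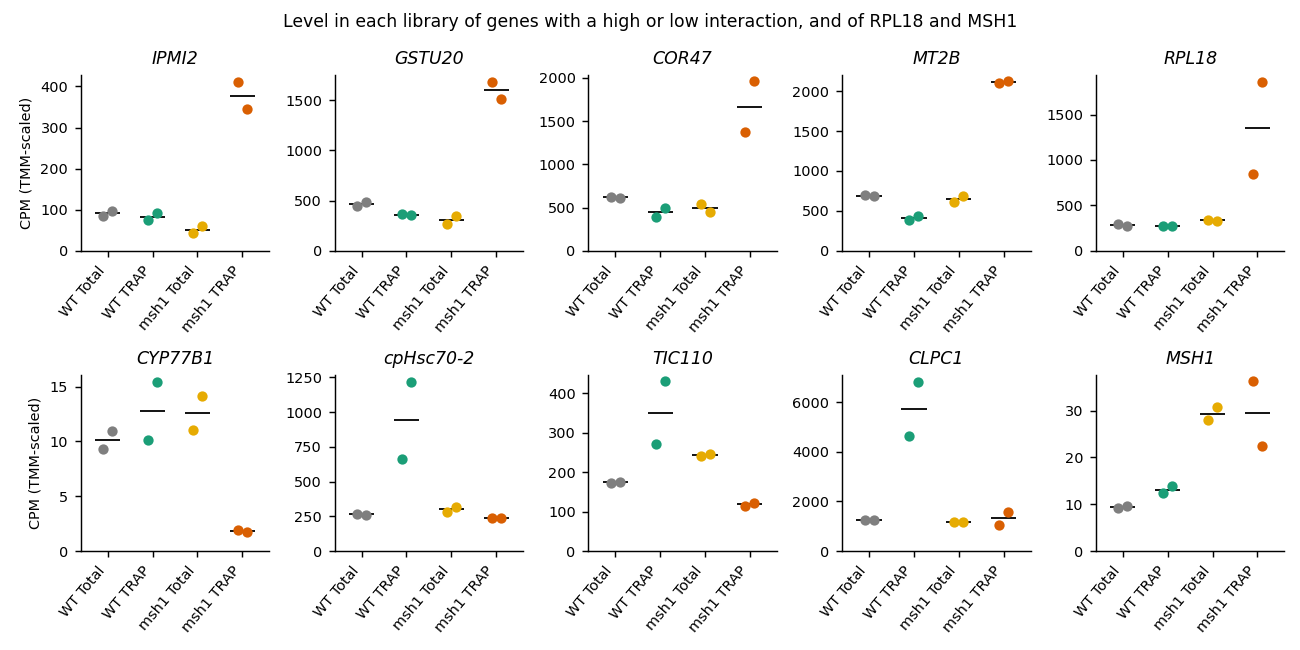
Level of 10 genes in each of the 8 libraries as TMM-scaled CPM (vertical axes from 0, with a scale per gene), grouped by genotype and fraction; points are libraries and bars are means of 2. IPMI2, GSTU20, COR47, MT2B and RPL18 stand apart in msh1 TRAP, CYP77B1 is low there, and cpHsc70-2, TIC110 and CLPC1 are highest in WT TRAP.

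Aliphatic glucosinolate genes fell often in Total and had a high share of higher interactions. Of 26 members tested, 10 were higher in the interaction, or 38.5% against 9.01% of all genes, 0 were lower, and the median was 0.78 against −0.01 for all genes. In Total, 14 members fell in msh1 and 0 rose, where 3.07% of all genes fell and 0.821% rose. In TRAP, 7 rose and 3 fell, a share near that of all genes, of which 20.8% rose and 20.8% fell. The members that were higher include 4 enzymes of chain elongation, with BCAT4, the aminotransferase that starts it, at 1.73 ± 0.24, MAM1, the condensing enzyme, at 1.32 ± 0.23, and IPMI1 and IPMI2, subunits of the isomerase, at 1.65 ± 0.23 and 3.0 ± 0.28. They also include FMO GS-OX1, which oxidises the side chain, at 1.87 ± 0.22, and the sulfotransferase SOT17, which makes the last step of the core structure. Other enzymes of chain elongation did not pass, with IMD1 at 0.70, IIL1 at 0.28 and BCAT3 at 0.23. The transcription factors of the pathway did not pass either, with MYB28 at 0.37 ± 0.32, MYB29 at 0.68 ± 0.29 and MYB76 at 1.33 ± 0.47. MYB76 was thus as high as MAM1, with a wider standard error. At the low end, AOP3 and IMS2 stood at −1.01 and −0.79 without passing the test, and fell in msh1 in both fractions. The count of 10 was also 10 with the length trend removed, and 6 without WT Total replicate 2 or msh1 Total replicate 1.

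The 22 genes with msh1 effects in opposite directions include 4 of this pathway. IPMI1 stood at 85.1 and 81.2 CPM in TRAP of WT against 146 and 142 CPM in that of msh1, and at 72.4 and 75.7 CPM in Total of WT against 34.4 and 46.9 CPM in that of msh1. Its libraries did not overlap between genotypes in either fraction, falling in Total by 0.86 on the log2 scale (edgeR adjusted p = 0.0103) and rising in TRAP by 0.79 (edgeR adjusted p = 0.00209). FMO GS-OX1 fell in Total by 0.92 and rose in TRAP by 0.95, and MAM1 fell by 0.66 and rose by 0.66. Of the 22 genes, 17 fell in Total and rose in TRAP. They include the dehydrin LTI30, HIPP25 of the heavy-metal-associated isoprenylated proteins, the calcium-binding protein CP1, the nuclear factor Y subunit NF-YA4, the receptor kinase IKU2, known for its role in seed size, and DR4, a protease inhibitor-like protein named for its repression by drought.

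The other 5 genes rose in Total and fell in TRAP. CR88, a chloroplast HSP90 chaperone (AT2G04030), stood at 184 and 210 CPM in TRAP of WT against 131 and 126 CPM in that of msh1, and at 199 and 212 CPM in Total of WT against 309 and 333 CPM in that of msh1. The libraries of msh1 Total were the highest and those of msh1 TRAP the lowest, with no overlap, which gave an interaction of −1.25 ± 0.21 (edgeR adjusted p = 0.00367). The others were NFXL1, a zinc finger regulator of stress responses, FLN2, a fructokinase-like protein of plastid nucleoids, AT1G30680, which encodes a toprim domain protein, and AT3G22150, a tetratricopeptide repeat-like protein. This class needs 3 tests to pass at once and depends on single libraries, with 0 genes without WT Total replicate 2 or msh1 Total replicate 1, 4 without WT Total replicate 1, 6 without msh1 Total replicate 2, 12 without WT TRAP replicate 2, 76 without msh1 TRAP replicate 1 and 67 without msh1 TRAP replicate 2.

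**Figure D3:**
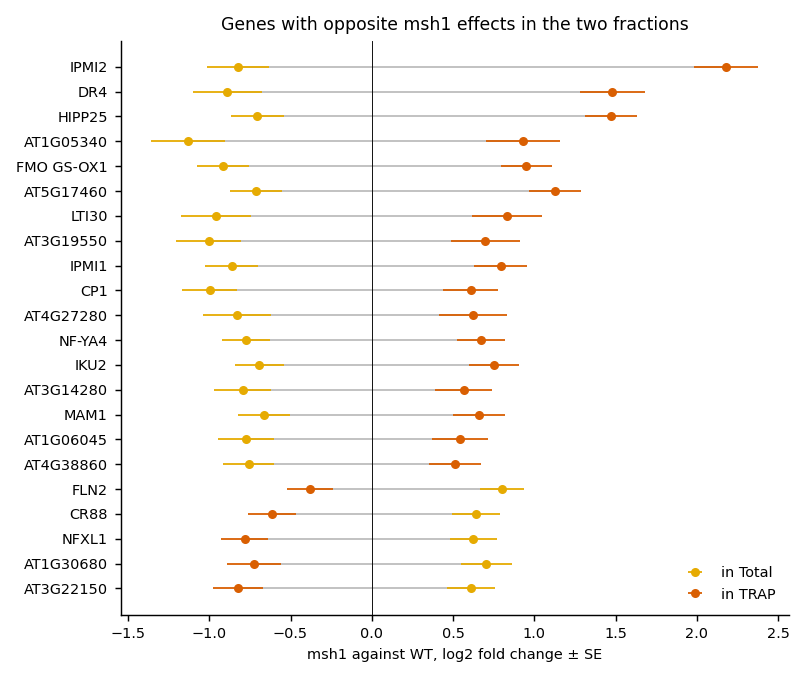
Log2 fold change ± SE of msh1 against WT in Total and in TRAP for the 22 genes whose effects passed the test in opposite directions, ordered by the interaction. The 17 upper genes fell in Total and rose in TRAP, IPMI2 by the widest margin, and the 5 lower genes rose in Total and fell in TRAP.

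Cold, drought and abscisic acid genes also had a high share of higher calls. Of 31 members tested, 13 were higher, or 41.9% against 9.01% of all genes, and 1 was lower, or 3.23% against 6.61%, and the median was 0.84. COR47, a dehydrin that protects cells under freezing and drought (AT1G20440, chromosome 1, 7084409 to 7086873, minus strand), stood at 388 and 499 CPM in TRAP of WT against 1369 and 1960 CPM in that of msh1, and at 621 and 612 CPM in Total of WT against 542 and 446 CPM in that of msh1. KIN2, a cold-inducible protein, stood at 656 and 730 CPM in TRAP of WT against 2548 and 4423 CPM in that of msh1, and at 926 and 930 CPM in Total of WT against 1025 and 997 CPM in that of msh1. In both genes WT TRAP was below WT Total, and both msh1 TRAP libraries exceeded all others. The interaction was 2.23 ± 0.29 for COR47 (edgeR adjusted p = 0.00217) and 2.21 ± 0.32 for KIN2 (edgeR adjusted p = 0.00229). Protective end products followed, among them ERD10, KIN1, LTI30, ERD14, LTI78, COR15A and COR15B, at 1.30 to 1.86. Not all passed: the dehydrin RAB18 stood at 0.80 ± 0.33 and the galactinol synthase GolS1 at 0.10 ± 0.20, and neither was called.

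Most regulators of the list did not pass. CBF1, DREB1A and CBF2, the cold-induced transcription factors that bind the C-repeat, stood at 1.72 ± 0.72, 1.51 ± 0.72 and 0.76 ± 0.89 and did not pass. CBF1 and DREB1A thus had values as large as those of end products that passed, with wider standard errors. The phosphatases ABI1, ABI2, HAB1 and HAB2, which restrain abscisic acid signalling, lay between −0.31 and 0.20. PP2CA, another phosphatase of that pathway, was higher at 0.84 ± 0.20. In Total, 10 of the 31 members fell in msh1 and 0 rose, where 3.07% of all genes fell and 0.821% rose. The galactinol synthases GolS2 and GolS3, which make protective sugars, were higher although neither rose in TRAP. GolS3 fell in Total by 2.46 and in TRAP by 1.05, and GolS2 fell in Total by 1.38, with a TRAP difference of 0.07 that did not pass. P5CS1, which makes proline, was the 1 lower member at −0.82 ± 0.26 (edgeR adjusted p = 0.0476), and kept its call only without WT TRAP replicate 1 or msh1 TRAP replicate 2. With the length trend removed, 11 members were higher and 0 lower. The C-repeat core CCGAC, on either strand from 250 bases before to 50 after the gene start, was in 7 of the 31 promoters, or 22.6%. Over all genes tested the share was 16.0%. It was 34.6% in the auxin response list and 24.3% in the cuticle and epidermis list, and 7.69% to 17.0% in the other lists searched, so it is not particular to cold genes. For the G-box CACGTG the share of the 31 was 22.6% against 8.49% for all genes tested. It was 19.2% in the aliphatic glucosinolate list, 15.4% in the auxin response list and 0% to 12.5% in the other lists searched. A share above that of all genes is thus not particular to cold genes for this word either.

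Most of the auxin response list is a single family, Aux/IAA, and the higher members of the list were all of that family. Of 26 members tested, 12 were higher, or 46.2%, and 0 were lower, with a median of 1.02, and all 12 encode Aux/IAA proteins, the short-lived repressors that auxin removes. IAA19 was at 1.98 ± 0.43, AXR3 (IAA17) at 1.72 ± 0.33 and IAA9 at 1.34 ± 0.21. IAA9 stood at 309 and 339 CPM in TRAP of WT against 726 and 820 CPM in that of msh1, and at 382 and 363 CPM in Total of WT against 351 and 351 CPM in that of msh1, so that the msh1 TRAP libraries alone stood apart. AUX1, an auxin uptake carrier, and GH3.3, which conjugates auxin to amino acids, did not pass, at −0.30 and −0.20. The count of 12 fell to 6 without WT Total replicate 2, WT TRAP replicate 2 or msh1 Total replicate 2 and to 8 with the length trend removed or without WT Total replicate 1. IAA19 itself lost its call without WT TRAP replicate 2 or msh1 Total replicate 2.

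The list built on histone product names had the largest share of calls of any list. It holds every gene whose product name places it among histones or in the histone superfamily, and so includes LEC1, a nuclear factor Y subunit that regulates seed development and is not a histone. Of 43 genes tested, 31 were higher, or 72.1%, 0 were lower, and the median was 1.39. RAT5, a histone H2A gene needed for Agrobacterium transformation (AT5G54640, chromosome 5, 22196287 to 22197492, plus strand), stood at 14.0 and 12.4 CPM in TRAP of WT against 35.8 and 39.2 CPM in that of msh1, and at 23.0 and 20.4 CPM in Total of WT against 19.3 and 17.5 CPM in that of msh1. The order was WT TRAP below both Total groups and msh1 TRAP above them, with no overlap, and the interaction was 1.75 ± 0.23 (edgeR adjusted p = 0.00217). AT3G27360 was at 2.04 ± 0.38 and AT1G09200 at 1.68 ± 0.33, both annotated in the histone superfamily. In TRAP 37 of the 43 rose in msh1, where 20.8% of all genes rose, and in Total 0 rose. The 1 member that fell, in both fractions, was LEC1. The genes of this list are short, with a median transcript of 839 nt, and the count was 16 with the length trend removed. Near-identical copies within the family share reads, so values of single members are uncertain between them. The cell division list, with a median transcript of 1658 nt, had 0 higher and 2 lower of 22. These are 0% and 9.09%, against 9.01% and 6.61% of all genes.

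Promoters of histone genes are shown because these genes moved together and many plant histone promoters are known to hold an octamer, CGCGGATC. Searched on both strands from 250 bases before to 50 after the gene start, the octamer was in 9 of the 43 promoters of the list, or 20.9%, and in 0.160% of the promoters of all genes tested. All 9 of these genes were higher in the interaction, as were 22 of the 34 without it, and the medians were 1.45 and 1.34. The 250 bases before the start follow for 4 genes with the octamer and for both of the highest called genes, AT3G27360 and RAT5, which lack it in this window. Capitals mark the octamer, on either strand, and each sequence reads 5′ to 3′ on the strand of the gene, from the TAIR10.1 assembly.
AT1G09200 (chr1:2972335-2972584, minus strand): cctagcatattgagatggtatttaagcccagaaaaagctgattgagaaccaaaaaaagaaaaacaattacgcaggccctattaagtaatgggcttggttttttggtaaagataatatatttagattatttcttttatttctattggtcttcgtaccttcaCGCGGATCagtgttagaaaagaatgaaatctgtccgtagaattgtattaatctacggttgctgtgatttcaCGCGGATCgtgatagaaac
HTA6 (chr5:24116221-24116470, minus strand): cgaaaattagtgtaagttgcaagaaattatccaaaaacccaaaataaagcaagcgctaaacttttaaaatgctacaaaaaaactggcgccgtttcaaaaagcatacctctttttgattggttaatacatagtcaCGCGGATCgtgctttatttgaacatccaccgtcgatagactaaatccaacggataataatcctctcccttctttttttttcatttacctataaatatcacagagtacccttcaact
HTA10 (chr1:18926561-18926810, plus strand): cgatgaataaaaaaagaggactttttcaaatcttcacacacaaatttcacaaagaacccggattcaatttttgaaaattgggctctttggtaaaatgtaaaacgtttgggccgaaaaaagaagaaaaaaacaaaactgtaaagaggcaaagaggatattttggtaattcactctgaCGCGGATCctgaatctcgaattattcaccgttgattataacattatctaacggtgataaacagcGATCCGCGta
HTA13 (chr3:7229140-7229389, plus strand): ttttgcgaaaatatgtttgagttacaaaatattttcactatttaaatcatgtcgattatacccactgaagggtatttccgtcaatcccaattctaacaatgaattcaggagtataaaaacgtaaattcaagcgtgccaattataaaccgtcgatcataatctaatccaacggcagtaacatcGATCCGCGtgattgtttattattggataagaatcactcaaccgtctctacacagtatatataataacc
AT3G27360 (chr3:10129938-10130187, minus strand): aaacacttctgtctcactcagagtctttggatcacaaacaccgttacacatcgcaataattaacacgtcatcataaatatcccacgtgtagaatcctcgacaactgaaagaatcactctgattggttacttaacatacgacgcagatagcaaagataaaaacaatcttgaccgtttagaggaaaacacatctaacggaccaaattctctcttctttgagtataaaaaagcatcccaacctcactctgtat
RAT5 (chr5:22196037-22196286, plus strand): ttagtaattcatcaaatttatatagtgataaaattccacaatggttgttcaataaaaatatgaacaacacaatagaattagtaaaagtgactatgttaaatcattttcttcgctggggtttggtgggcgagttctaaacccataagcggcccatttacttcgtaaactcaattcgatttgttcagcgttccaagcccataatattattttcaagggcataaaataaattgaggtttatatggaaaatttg
AT1G09200 and HTA10 hold the octamer at 2 positions each, and in HTA13 and at the position of HTA10 nearest the start it lies on the opposite strand. A match describes the letters only.

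Redox and detoxification families were added to the lists because their leading genes had been seen among the highest, so their counts include those genes and support nothing. Among 39 glutathione S-transferases 13 were higher, or 33.3%, and 1 lower. Among 31 heavy metal transport and detoxification proteins 12 were higher, or 38.7%, and 0 lower. Among 107 thioredoxins and glutaredoxins 29 were higher, or 27.1%, and 0 lower, where 9.01% of all genes were higher and 6.61% lower. GSTF9 was at 1.61 ± 0.25, TRX5, an h-type thioredoxin of the cytosol, at 2.12 ± 0.31, and GRXC2, a glutaredoxin, at 1.91 ± 0.22. TRX5 stood at 44.9 and 35.2 CPM in TRAP of WT against 157 and 229 CPM in that of msh1, and at 48.3 and 64.6 CPM in Total of WT against 69.2 and 56.6 CPM in that of msh1. With the length trend removed the higher counts were 6, 6 and 10. Without WT Total replicate 2 they were 5, 3 and 9, and without msh1 TRAP replicate 1 they were 17, 17 and 52. Without each of the others they lay at 6 to 12, 4 to 8 and 10 to 21.

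Ribosomal protein, photosynthesis, and touch and wound genes had shares of higher calls nearer to the 9.01% of all genes. Of 300 genes named ribosomal proteins of any compartment, 66 were higher, or 22.0%, and 1 was lower, with a median of 0.48. Of 36 photosystem and Rubisco genes 5 were higher, or 13.9%, and 0 lower, with a median of 0.49. The ribosomal count was 167 without msh1 TRAP replicate 1 and 24 to 43 without each of the others, and it was 17 higher with 9 lower when the length trend was removed. The photosynthesis count was 17 without msh1 TRAP replicate 1 and 1 to 3 without each of the others, and with the length trend removed it was 1, with a median of 0.09. PSAH2, a photosystem I subunit, was at 1.45 ± 0.30, with 1008 and 1541 CPM in msh1 TRAP and 404 to 559 CPM in the other libraries. The 1 lower ribosomal protein was ATL5 (AT3G25520), ribosomal protein L5, at −0.94 ± 0.26, which kept its call only without WT TRAP replicate 1 or a msh1 TRAP library. Touch and wound genes had 4 higher, or 18.2%, and 0 lower of 22, with a median of 1.00. Their higher count was 2 with the length trend removed, 1 without WT Total replicate 2, 2 without WT TRAP replicate 2 or msh1 Total replicate 1, and 7 without WT TRAP replicate 1 or msh1 TRAP replicate 2.

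**Figure D4:**
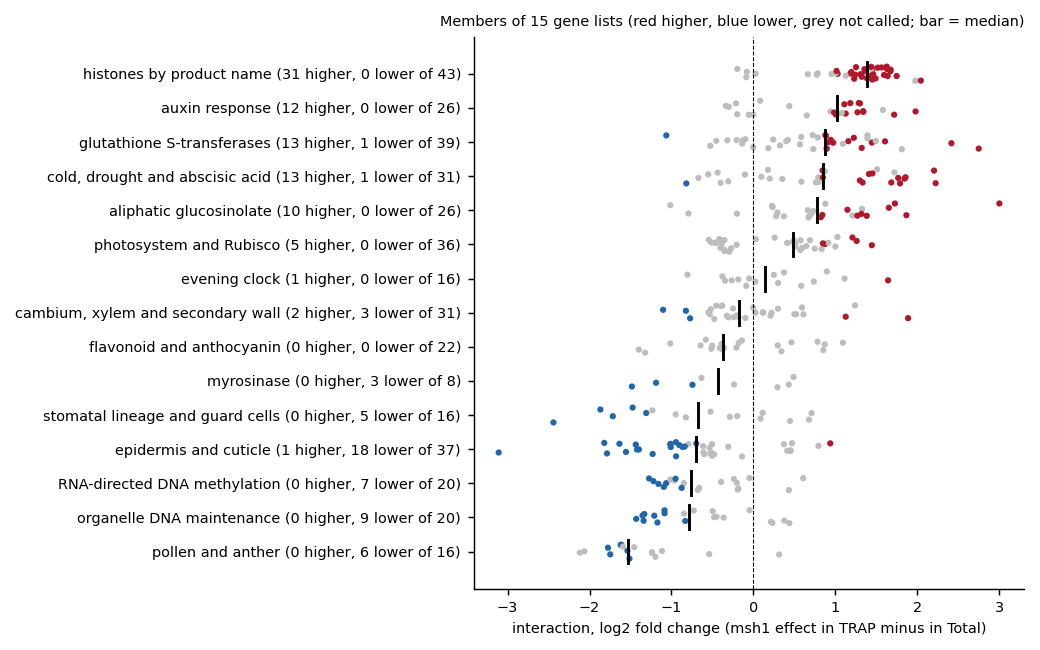
Interaction log2 fold change (horizontal axis) of the members of 15 gene lists, 1 point per gene tested, with called genes in red (higher) or blue (lower), the list median as a bar, and the median of all genes tested, −0.01, as a dashed line. Histone, auxin, glutathione S-transferase, cold and aliphatic glucosinolate genes lie mostly to the right, and pollen, organelle DNA maintenance, RNA-directed DNA methylation and cuticle genes to the left.

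The lowest interactions were of genes low in msh1 TRAP or high in WT TRAP. MEE48, a glycosyl hydrolase of family 17 (AT4G14080, chromosome 4, 8118537 to 8120358, minus strand), stood at 5.39 and 12 CPM in TRAP of WT against 0.382 and 0.589 CPM in that of msh1, and at 5.65 and 5.32 CPM in Total of WT against 5.41 and 6.23 CPM in that of msh1. Both msh1 TRAP libraries were below all others, and the interaction was −4.22 ± 0.62 (edgeR adjusted p = 0.00233). CYP77B1, a cytochrome P450 (AT1G11600), was at −3.11 ± 0.39, with 1.91 and 1.77 CPM in msh1 TRAP and 9.35 to 15.4 CPM elsewhere. AGO5, an Argonaute protein of reproductive tissue, was at −2.88 ± 0.61 and lost its call without msh1 Total replicate 2. PAP85, a vicilin-type seed storage protein, was at −2.97 ± 0.85 and kept its call only without WT TRAP replicate 1 or msh1 Total replicate 1. Of the other genes among the 15 lowest, cwINV4, a cell wall invertase, was at −2.43 ± 0.46, CPK24, a calcium-dependent kinase, at −2.04 ± 0.41, and sks12, a SKU5-like protein, at −1.99 ± 0.37. CHX23, a cation exchanger, was at −2.28 ± 0.58 and kept its call only without a msh1 TRAP library.

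Some of the other genes among the lowest were highest in WT TRAP. cpHsc70-2, a chloroplast chaperone of the HSP70 family (AT5G49910), stood at 662 and 1220 CPM in TRAP of WT against 236 and 235 CPM in that of msh1, and at 264 and 262 CPM in Total of WT against 280 and 319 CPM in that of msh1. CLPC1, a chaperone of the plastid Clp protease and import motor, stood at 4627 and 6821 CPM in TRAP of WT against 1064 and 1585 CPM in that of msh1, and at 1240 and 1261 CPM in Total of WT against 1166 and 1187 CPM in that of msh1. Their WT TRAP libraries were above the other 6. The interaction was −2.19 ± 0.33 for cpHsc70-2 (edgeR adjusted p = 0.00246), −2.02 ± 0.32 for CLPC1 (edgeR adjusted p = 0.0031), −2.05 ± 0.28 for TIC110, a channel of the inner envelope, and −2.04 ± 0.31 for LOX2, a lipoxygenase that starts jasmonate synthesis. PREP1, which degrades targeting peptides in plastids and mitochondria, was at −2.0 ± 0.34, and GLDP1, a glycine decarboxylase subunit of mitochondria, at −2.14 ± 0.34. Genes with chloroplast or plastid in their product name as a whole, a list added after these values were seen, had 16 higher and 18 lower of 116. These are 13.8% and 15.5%, against 9.01% and 6.61% of all genes, and the median was −0.03.

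Of 20 tested nuclear genes that maintain organelle DNA, the process in which MSH1 acts, 9 were lower, or 45% against 6.61% of all genes. The other 11 did not pass, and the median was −0.78. AT1G30680, the toprim domain protein, stood at 28.1 and 33.6 CPM in TRAP of WT against 17.5 and 19.9 CPM in that of msh1, and at 21.5 and 20.1 CPM in Total of WT against 35.5 and 32.3 CPM in that of msh1. It rose in Total and fell in TRAP in msh1, without overlap, which gave an interaction of −1.43 ± 0.23 (edgeR adjusted p = 0.00313). The topoisomerase AT4G31210 was at −1.35 ± 0.24, and the gyrase subunits GYRB1, GYRA and GYRB2, which control the supercoiling of organelle DNA, at −1.34 ± 0.25, −1.17 and −1.08. The DNA polymerases POLGAMMA1 and POLGAMMA2 were at −1.09 and −0.83, and the organelle RNA polymerases SCA3 and AT5G15700 at −1.33 and −1.21. Recombination and DNA-binding proteins did not pass, with RECA2 at −0.73 the Whirly proteins WHY1, ATWHY2 and WHY3 between −0.05 and 0.38, and OSB1 and PTAC9 at 0.21 and 0.44. With the length trend removed 3 were lower. The count was 4 without WT Total replicate 2 and 5 without WT Total replicate 1.

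Genes of RNA-directed DNA methylation, which silences repeats through small RNAs, had 7 lower, or 35%, and 0 higher of 20, with a median of −0.76. They were DMS3, AGO4, HEN1 and 4 subunits of RNA polymerases II, IV and V, between −1.27 and −0.88. DMS3 overlaps the exons of AT3G49240 and is uncertain. Of the genes that maintain DNA methylation 2 of 16 were lower, or 12.5% against 6.61% of all genes. They were MET1, the CG methyltransferase, at −1.50 ± 0.29 and DME, a DNA glycosylase that removes 5-methylcytosine, at −1.29 ± 0.22. MET1 stood at 38.6 and 63.6 CPM in TRAP of WT against 21.0 and 20.3 CPM in that of msh1, and at 28.9 and 29.1 CPM in Total of WT against 35.5 and 30.5 CPM in that of msh1. These genes are long, with median transcripts of 3246 nt and 3409 nt, and with the length trend removed 0 members of either list were called. The count of 7 was 1 without WT Total replicate 2, WT TRAP replicate 2 or either msh1 Total library, and 2 without WT Total replicate 1. Pentatricopeptide repeat proteins, which process organelle RNA, had 39 lower, or 15.5% against 6.61% of all genes, and 0 higher of 251. Their median was −0.66, and 7 were lower with the length trend removed. Their count was 8 without WT Total replicate 1 or 2, 13 to 15 without WT TRAP replicate 2 or a msh1 Total library, and 31 to 43 without each of the others.

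Cuticle and epidermis genes had the largest share of lower calls among the lists. Of 37 members tested, 18 were lower, or 48.6%, and 1 was higher, with a median of −0.70. CYP96A15, the alkane hydroxylase of stem wax (AT1G57750, chromosome 1, 21383812 to 21385709, minus strand), stood at 153 and 223 CPM in TRAP of WT against 51.1 and 33.6 CPM in that of msh1, and at 321 and 312 CPM in Total of WT against 223 and 267 CPM in that of msh1. In each genotype both TRAP libraries were below both Total libraries, and those of msh1 TRAP were the lowest of all. The interaction was −1.79 ± 0.31 (edgeR adjusted p = 0.00445). Other lower members make wax alkanes (CER1, −1.42; CER3, −1.23), extend fatty acids (KCS1 and KCS6, both −1.01) or make cutin (CYP77A6, −1.82; CYP86A4, −1.64; GPAT6, −1.40). LTPG2, a lipid transfer protein, was the 1 higher member at 0.94 ± 0.21 and lost its call without any of the 4 Total libraries. CYP77A6 lost it without WT Total replicate 2, WT TRAP replicate 2, msh1 Total replicate 2 or msh1 TRAP replicate 2. In TRAP 27 of the 37 members fell and 3 rose, where 20.8% of all genes fell and 20.8% rose. In Total 0 of the 37 changed, where 3.89% of all genes did.

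The 4 epidermal markers, CER1, KCS6, ATML1 and PDF1, are all members of this list, so their sum is not a separate measurement. It was 721 and 985 CPM in TRAP of WT against 358 and 279 CPM in that of msh1, and 1072 and 1045 CPM in Total of WT against 800 and 882 CPM in that of msh1. CER1 and KCS6 were lower. The identity factor ATML1 was at −0.50 and PDF1 at −0.54, and neither passed. Fewer tagged epidermal cells and less cuticle RNA per cell cannot be told apart in these bulk samples. With the length trend removed 12 members were lower, and the count was 4 without WT Total replicate 2, 5 without msh1 Total replicate 2, 6 without WT TRAP replicate 2, and 7 without WT Total replicate 1 or msh1 Total replicate 1.

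Of 16 stomatal genes 5 were lower, or 31.2%, and 0 higher, among them SDD1, the subtilase that limits stomatal density, at −2.44 ± 0.51, KAT2, a guard cell potassium channel, at −1.87 ± 0.45, and the receptor genes ERL1 and TMM. The stomatal count was 1 without WT TRAP replicate 2, 2 or 3 without a Total library, 3 without msh1 TRAP replicate 2, and 5 or 7 otherwise, and it was 2 with the length trend removed. The guard cell markers FMA, KAT1 and MYB60 are members of this list, so their sum is not a separate measurement. That sum stood at 20.9 and 14.6 CPM in msh1 TRAP and at 24.5 to 31.2 CPM in the other 6 libraries. None of these markers passed, at −0.52, −0.82 and 0.09. SDD1 lost its call without WT TRAP replicate 2, and KAT2 without WT Total replicate 2, WT TRAP replicate 2 or msh1 Total replicate 2. Of 8 genes of the myrosinase list TGG1, TGG2 and the myrosinase-binding protein MBP2, at −0.74, were lower. These 3 are 37.5%, against 6.61% of all genes, and 0 were higher. That count was 2 with the length trend removed or without msh1 Total replicate 2, 1 without WT Total replicate 1 or 2, WT TRAP replicate 2 or msh1 Total replicate 1, and 3 or 4 otherwise. MBP1, ESP and GLL22 lay above 0, at 0.43, 0.49 and 0.29, without passing. TGG2, a myrosinase that cleaves glucosinolates (AT5G25980), stood at 1054 and 1396 CPM in TRAP of WT against 419 and 524 CPM in that of msh1, and at 1656 and 1624 CPM in Total of WT against 1843 and 1688 CPM in that of msh1. Its interaction was −1.48 ± 0.26 (edgeR adjusted p = 0.00492) and that of TGG1 −1.19 ± 0.26, the latter lost without WT Total replicate 1 or 2, WT TRAP replicate 2 or msh1 Total replicate 1. TGG1 and TGG2 are also the myrosin cell markers, so the level of these cells and of these transcripts is 1 measurement here.

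Anther and pollen genes had the lowest median of any list, −1.53, with 6 lower, or 37.5% against 6.61% of all genes, and 0 higher of 16 tested. MS2 (AT3G11980), which makes fatty alcohols for the pollen wall, stood at 7.70 and 13.4 CPM in TRAP of WT against 3.18 and 3.18 CPM in that of msh1, and at 4.97 and 5.74 CPM in Total of WT against 5.51 and 5.52 CPM in that of msh1, with an interaction of −1.78 ± 0.42 (edgeR adjusted p = 0.0151). ACOS5 and LAP6, which also act in pollen wall synthesis, were at −1.75 ± 0.53 and −1.61. MS2 kept its call only without WT TRAP replicate 1 or a msh1 TRAP library, and ACOS5 only without msh1 TRAP replicate 2. The list also holds sks14, a SKU5-like protein, at −1.62 ± 0.39, a call lost without WT Total replicate 2, WT TRAP replicate 2 or msh1 Total replicate 2. In Total, 0 of the 16 genes changed. The 3 anther markers, MS2, AMS and CYP704B1, are members of this list, so their sum is not a separate measurement, and only MS2 was called. Their summed level was low, 10.5 to 11.1 CPM in Total, 12.3 and 18.2 CPM in WT TRAP, and 4.84 and 4.12 CPM in msh1 TRAP. All 6 were also lower with the length trend removed, and 1 was without WT Total replicate 2 or msh1 Total replicate 2, 2 without WT TRAP replicate 2, and 4 without WT Total replicate 1 or msh1 Total replicate 1.

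Seed storage genes had strong genotype effects in both fractions. Of 21 members 19 fell in msh1 in Total and 20 fell in TRAP, where 3.07% and 20.8% of all genes fell. In the interaction 2 were lower, or 9.52% against 6.61% of all genes, and 0 higher. The median interaction of the list was −0.82, and 4 members lay above 0. Standard errors were wide, as for CRU3 at −1.70 ± 0.60 and OLEO2 at −2.05 ± 0.71, which did not pass. CRA1, a 12S seed storage protein, stood at 270 and 627 CPM in TRAP of WT against 14.0 and 8.01 CPM in that of msh1, and at 661 and 533 CPM in Total of WT against 32.4 and 75.7 CPM in that of msh1. It fell by 3.46 in Total and by 5.35 in TRAP, and the interaction of −1.89 ± 0.60 (edgeR adjusted p = 0.0495) kept its call only without WT TRAP replicate 1, msh1 Total replicate 1 or msh1 TRAP replicate 1. The list's count was 5 without WT TRAP replicate 1, 7 without msh1 Total replicate 1, 1 without msh1 TRAP replicate 1 and 0 without each of the others. The seed markers CRU3, CRA1, SESA1 and OLEO1 are members of this list, so their sum is not a separate measurement. That sum ranged from 576 to 1596 CPM in WT and from 22.0 to 175 CPM in msh1, and the part of this difference in the interaction was not tested. The morning clock genes had 7 members that fell in Total and 7 that fell in TRAP, and 0 of 11 in the interaction. No flavonoid and anthocyanin gene was called among 22, with 6 that fell in Total and 12 in TRAP, where 3.07% and 20.8% of all genes fell.

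Vascular lists had calls in both directions, where 9.01% of all genes were higher and 6.61% lower. Among 31 cambium, xylem and secondary wall genes 2 were higher, or 6.45%, and 3 lower, or 9.68%, the lower ones being the cellulose synthases CESA4, IRX3 and IRX1 at −1.10, −0.82 and −0.77, and the higher ones WOX4, which maintains the cambium, at 1.89 ± 0.39 and FLA11, a wall protein of fibres, at 1.13 ± 0.23. Among 16 lignin genes CCoAOMT1 was higher at 1.24 ± 0.25 and PAL4, PAL1 and C4H, the entry enzymes of the pathway, were lower at −1.05, −0.82 and −0.91. These are 6.25% higher and 18.8% lower, and with the length trend removed 1 lignin gene was higher and 1 lower. Among 15 phloem genes 2 were lower and 2 higher, 13.3% each, with a median of 0.20. SEOa, a sieve element protein, was at −1.58 ± 0.33 and SUC2, the sucrose loader of companion cells, at −1.19 ± 0.31, while SWEET12, a sucrose exporter, was at 0.85 ± 0.22 and the transcription factor bZIP6 at 1.00 ± 0.31. With the length trend removed, 0 cambium and xylem genes were lower and 1 was higher, and 2 phloem genes were lower and 0 higher. The higher phloem count was 3 without msh1 TRAP replicate 1, 1 without WT TRAP replicate 2 or msh1 TRAP replicate 2, and 0 without each of the others. CESA4 lost its call without WT Total replicate 1 or 2, WT TRAP replicate 2 or msh1 Total replicate 2, and SUC2 kept it only without WT TRAP replicate 1 or a msh1 TRAP library. IRX1 kept its call only without msh1 TRAP replicate 1, IRX3, PAL1 and C4H only without WT TRAP replicate 1 or a msh1 TRAP library, and PAL4 only without msh1 Total replicate 1 or a msh1 TRAP library. FLA11 lost its call without WT Total replicate 2 or msh1 Total replicate 1, and CCoAOMT1 without msh1 Total replicate 1. The summed xylem markers were 941 and 1166 CPM in WT TRAP and 364 to 795 CPM elsewhere, and their part in these values was not tested. Most of that sum came from CESA4 and IRX3, both called lower above, so it is not a separate measurement. The marker XCP2 went the other way, at 24.1 and 34.2 CPM in WT TRAP against 65.5 and 58.1 CPM in WT Total. KNAT7 stood at 52.9 and 53.9 CPM against 44.7 and 48.6 CPM.

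Transcript length, which the contrast does not use, ran with the interaction over all genes. Higher genes had a median transcript of 1143 nt, lower genes 2864 nt, and all genes tested 1680 nt. The coding part made the difference, at 573 nt against 2301 nt, while the 3′ untranslated regions were of similar length, at 301 nt and 284 nt. Median exon numbers were 3 and 8. Across the 21202 genes, which share their libraries and are not independent replicates, Spearman's rho between length and interaction was −0.45 and Pearson's r −0.33. Among the longest eighth of the genes, from 2871 nt up, 0.491% were higher and 26.4% lower, and among those of 841 to 1152 nt 21.7% were higher and 0.453% lower.

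The length trend ran in opposite directions in both TRAP groups. Against the WT Total mean, genes of 841 to 1152 nt stood at a median of −0.12 and −0.18 on the log2 scale for WT TRAP, against 0.36 and 0.66 for msh1 TRAP and 0.09 and 0.08 for msh1 Total. The longest eighth stood at 0.20 and 0.26 for WT TRAP, against −0.28 and −0.50 for msh1 TRAP and −0.09 and −0.07 for msh1 Total. WT TRAP thus held relatively more of the long transcripts and msh1 TRAP more of the short ones, with msh1 TRAP replicate 2 farthest out. When the trend was removed from each library before the test, 1585 genes were called, 1037 higher and 548 lower, and 1264 of the 3312, or 38.2%, remained in the same direction. The source of the trend was not tested.

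**Figure D5:**
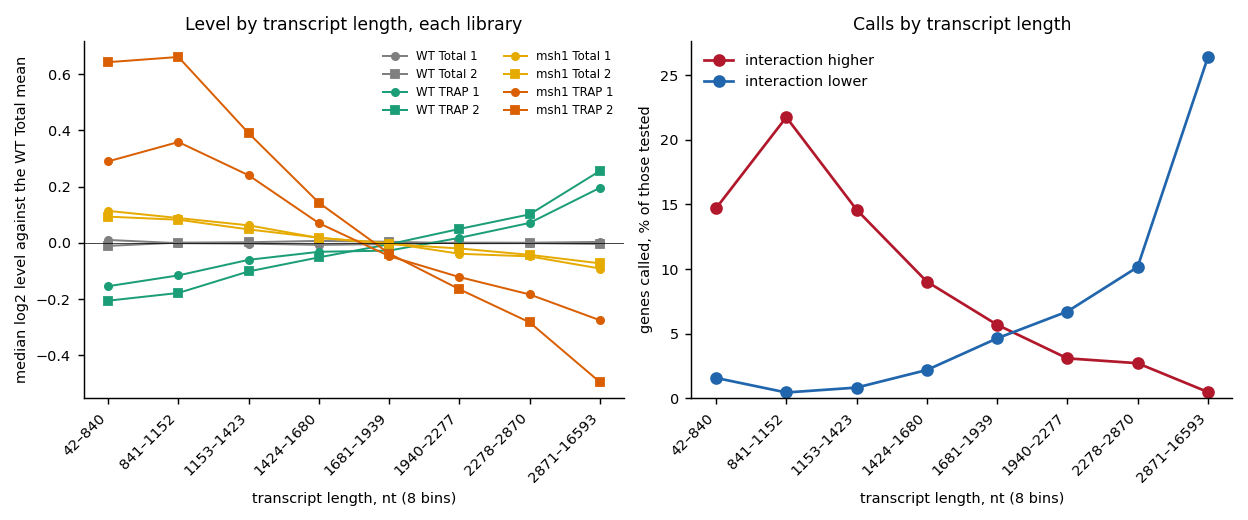
Left, median log2 level against the WT Total mean in 8 bins of transcript length (nt) for each library, for genes with a mean of at least 5 CPM; right, percent of tested genes called higher or lower in each bin. The lines of msh1 TRAP and WT TRAP cross between short and long transcripts, and calls pass from mostly higher at 841 to 1152 nt to mostly lower above 2871 nt.

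Other features are given as a description. Median levels were 33.8 CPM in higher genes, 40.0 CPM in lower genes and 12.3 CPM in tested genes that were not called. Promoters of higher, lower and all genes, in the same window and on both strands, held the TATA box TATAAA in 52.8%, 47.0% and 49.9%, the G-box in 9.01%, 8.20% and 8.49%, the evening element AAATATCT in 7.33%, 6.71% and 5.84%, and the site II element TGGGCC in 21.3%, 20.5% and 18.0%. The other words searched were in 0.419% to 50.1% of higher and 0.428% to 49.0% of lower promoters. The DYKxxD motif, which resembles part of the FLAG tag, was in the protein of 3 higher and 5 lower genes of 43 tested. These are 0.163% and 0.367% of the protein-coding genes called higher and lower, against 0.216% of all protein-coding genes tested. On the 5 chromosomes 8.72% to 9.48% of the genes tested were higher and 6.23% to 7.13% lower. Long non-coding and antisense RNA genes had 66 higher and 34 lower of 1071, or 6.16% and 3.2%, both below the 9.01% and 6.61% of all genes. Small nucleolar RNA genes had 1 higher, or 1.35%, and 0 lower of 74. Small nuclear RNA genes had 0 higher and 3 lower, or 15%, of 20. RR3, a type-A response regulator (1.99 ± 0.35), and the opposite-strand RNA gene AT2G09250 (2.01 ± 0.35) held nearly the same level in each library and overlap, so that their reads cannot be told apart.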

How the data were processed

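The 8 RNA-seq libraries of floral stem were prepared with a TruSeq v2 kit and read as 100-bp pairs per the labels' protocols, and analysed from raw counts per gene that the authors deposited. The submitters' processing notes name TAIR10 and DESeq2; the aligner, the counter and its strand setting are named by no label or header, and so not given in the sources used here. Closing lines that name no gene were left out: reads in no feature made 38.5% to 41.7% and reads that were not unique 12.4% to 18.9%. Organelle loci, all at 0 counts, were left out as well.

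The fit was edgeR 4.0.16 in R 4.3.3, with TMM factors, filterByExpr and the quasi-likelihood test on 4 groups (4 residual degrees of freedom), Benjamini-Hochberg threshold 0.05, with the same fit for the interaction and the simple effects, and checked on simulated data. Levels are TMM-scaled CPM, and log2 values carry standard errors. P-values measure the spread between libraries called biological replicates. DESeq2 1.42.0, limma-voom (limma 3.58.1), other scalings and filters, a length correction, replicate blocks and leave-one-out fits were alternatives. Promoter sequences and lengths come from RefSeq's TAIR10.1, in which all 32548 loci matched. Of the genes tested, 1907 overlap another locus.

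Named genes are MSH1, RPL18, the 15 called genes with the highest and the 15 with the lowest interaction (symbol, mean of at least 5 CPM), the 3 largest of each class of effects and up to 3 per list and direction; other genes were chosen after their values were seen. The members and lists were chosen with earlier results of these data known.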

Additional observations from a re-analysis of the deposited data

Results flagged for a closer look

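The interaction itself is a difference between the msh1 effects of both fractions, and it passed the test for 3312 genes. Among the genes with a symbol, 13 had msh1 effects that passed in opposite directions in Total and TRAP. Lower values, from a rise in Total and a fall in TRAP, were −1.41 for NFXL1, −1.25 for CR88 and −1.18 for FLN2. Higher values, from a fall in Total and a rise in TRAP, were 1.32 for MAM1, 1.44 for IKU2, 1.45 for NF-YA4, 1.6 for CP1, 1.65 for IPMI1, 1.79 for LTI30, 1.87 for FMO GS-OX1, 2.18 for HIPP25, 2.37 for DR4 and 3.0 for IPMI2. The size of the class they belong to ranged from 0 to 76 genes when 1 library was left out.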

How the results depend on the processing

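With 2 libraries a group and 4 residual degrees of freedom, the counts depended on single libraries and on some choices of method. RLE or upper-quartile factors, the stricter filter, limma-voom and leaving out the most abundant genes kept all counts by class within 1.5 times the reported ones, as did DESeq2 except for 34 genes in opposite directions. Without a filter on low counts, 162 genes passed in Total only and 72 in opposite directions. With the length trend removed there were 1585 calls, 1037 higher and 548 lower, with 1452 in TRAP only, and MSH1 stood at 0.0542 instead of −0.48 (edgeR adjusted p = 0.92). Leaving out 1 library gave 995 to 5608 calls, 733 to 3271 higher and 262 to 2337 lower, with 980 to 4920 in TRAP only, 3 to 119 in Total only and 0 to 76 in opposite directions. No named call changed sign in any of these settings, and 73 of 150 held in all leave-one-out fits, where a lone library is assumed to vary like the other groups.

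Whether Total and TRAP samples were paired is not known. Deviations of same-numbered libraries correlated at −0.327 and −0.297 between Total and TRAP of 1 genotype and at −0.051 to 0.138 otherwise. With 2 libraries a group this check cannot decide it, because pairing under swapped numbers would also give negative values. A replicate block across all groups gave 2600 calls, 1564 higher and 1036 lower, with 14 in opposite directions, and a block within genotype 1516, with 1009 and 507. The block with the length correction gave 1079, with 736 and 343, of which 1005 were in TRAP only, 24 in Total only and 11 in opposite directions, and MSH1 stood at 0.05 (edgeR adjusted p = 0.933). Crossed numbers, added after seeing the data, gave 5275 calls, 2908 higher and 2367 lower.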
